A study of Mus musculus with 6 samples.

Results

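Epoxide hydrolases add water to epoxides, and the transcripts described here are those of the microsomal form, Ephx1, and the soluble form, Ephx2, in mouse liver with and without the transcription factor Nrf2. The members were the probe sets of the value table whose annotation gave exactly 1 gene symbol, Ephx1 or Ephx2. Each gene had 1 such probe set, 1422438_at for Ephx1 and 1448499_a_at for Ephx2, so 2 genes of the 18193 named on the array were examined. The samples were 6 single-colour Affymetrix arrays of total liver RNA, 3 labelled Nrf2 ko and 3 labelled Nrf2 wt, all from mice of strain C57B/SV129 aged 10 weeks, with no surgery or treatment named. For each array the RNA of 3 animals was combined, and n below counts such pools. Pools are numbered 1 to 3 in each genotype as biological replicates, and the labels do not name the knockout allele, the sex of the mice, or whether pools shared animals. Values were compared as log2(intensity + 5.25) after quantile normalization, and a gene was called at a limma adjusted p of 0.05 over all 22519 probe sets tested. Groups are said not to overlap on the normalized values. Expression levels of different probe sets are not comparable with each other.

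Both enzymes belong to the alpha/beta hydrolase fold family, but they work in different places on different substrates. Microsomal epoxide hydrolase sits in the endoplasmic reticulum beside the cytochromes P450 and turns reactive epoxides of drugs and aromatic compounds into dihydrodiols, which is mostly a detoxification step. Its gene is among those that respond to Nrf2 activators, and it is also a classic phenobarbital-induced gene. Soluble epoxide hydrolase lies in the cytosol and peroxisomes and hydrolyses fatty acid epoxides such as the epoxyeicosatrienoic acids made from arachidonic acid, and its gene responds to ligands of PPAR alpha. Nrf2, encoded by Nfe2l2, pairs with small Maf proteins on antioxidant response elements.

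Promoter sequence is shown for Ephx1 and for the gene next to it, 9130409I23Rik, because the results below turn on both and because the factor removed in the knockout acts through a known DNA motif. A RefSeq promoter window (build GRCm38.p6) was matched for 1 of the 2 members, Ephx1. The 250 bases before each annotated start are printed 5′ to 3′ on the strand of the gene, with each match to the antioxidant response element core TGACNNNGC, on either strand, in capitals. The Ephx1 stretch is chr1:181017570-181017819 on the minus strand, and the 9130409I23Rik stretch is chr1:181050987-181051236 on the plus strand. The genes therefore point away from each other, with 33167 bases between the printed stretches.
Ephx1: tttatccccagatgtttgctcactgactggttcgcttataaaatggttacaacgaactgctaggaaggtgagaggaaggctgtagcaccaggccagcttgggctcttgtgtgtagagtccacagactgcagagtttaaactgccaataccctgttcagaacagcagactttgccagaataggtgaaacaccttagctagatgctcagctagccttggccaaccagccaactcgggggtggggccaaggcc
9130409I23Rik: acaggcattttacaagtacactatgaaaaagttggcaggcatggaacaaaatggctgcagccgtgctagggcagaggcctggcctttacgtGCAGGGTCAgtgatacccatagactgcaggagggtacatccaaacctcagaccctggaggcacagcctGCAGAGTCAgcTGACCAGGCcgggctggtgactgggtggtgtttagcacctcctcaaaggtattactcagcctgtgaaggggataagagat
The Ephx1 stretch held 0 matches, and the letters of the motif were also absent from the 50 bases after the start. The 9130409I23Rik stretch held 3 matches that do not overlap, GCAGGGTCA and GCAGAGTCA on the opposite strand and TGACCAGGC on the gene's own strand, whose first bases lie 159, 91 and 80 bases before the start. Of 32851 RefSeq promoter windows of 300 bases, 12.4% held at least 1 match and 0.0791%, 26 windows, held at least 3, a count chosen after the matches in 9130409I23Rik were seen. A match is a description of letters and no measure of binding.

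The arrays matched their genotype labels at the targeted gene. For Nfe2l2, knockout intensities of 5.74, 7.40 and 6.90 stood against wild-type intensities of 696, 598 and 625 on its brighter probe set, a log2 difference of -5.64 ± 0.15 (SE; limma adjusted p = 2.22e-06). The knockout values lie near the pseudocount, which sets the size of this difference: it was -6.20 and -4.48 with the smaller and the larger pseudocount, and -2.75 as the mean of both probe sets. Its dim second probe set, at 20.2 to 34.4, gave 0.14. Brightness, as the 2% trimmed mean of an array, spanned 92.0 to 131, and the number of arrays limits the precision of every comparison. Actin control probes, whose 3′ to 5′ ratio is a sign of RNA integrity, gave ratios of 1.97 ± 0.03 (SD, n = 3) for knockout and 1.86 ± 0.08 for wild-type arrays without overlap (exact two-sided permutation p = 0.1, the smallest that 3 against 3 can give). The same ratio for Gapdh was 0.767 and 0.760 (exact permutation p = 0.9). The part of RNA integrity in the differences below was not tested. Of the measured hepatocyte markers 10 of 10, among them Alb, Ttr, Apoa1 and Cps1, were above the filter on dim probe sets. That filter acts on the mean over the 6 arrays. It was also passed by 11 of 11 Kupffer cell, 10 of 10 endothelial and 10 of 10 stellate cell markers. Passing it therefore does not identify a cell type.

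The microsomal form was clearly lower without Nrf2. Deposited Ephx1 intensities read 973, 1170.1 and 1351 for knockout pools 1 to 3, against 3708, 2707 and 3059 for wild-type pools 1 to 3. The highest knockout pool lay far below the lowest wild-type pool, and the gap was present in the deposited values, before the quantile normalization applied here. Normalized, knockout pools read 1165, 1270.0 and 1226 and wild-type pools 3304, 3122 and 2625, giving means of 1220.3 ± 52.9 (SD, n = 3) and 3017 ± 351. The knockout pools were thus more alike after scaling than before it. The log2 difference was -1.30 ± 0.10 (SE, n = 3 per genotype), with a 95% interval of -1.52 to -1.07 and a limma adjusted p of 0.00169. Expressed as a share of the wild-type level, the knockout retained 40.7% of the Ephx1 signal, with an interval of 34.8% to 47.6%.

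The soluble form showed no such difference. Deposited Ephx2 intensities read 3532, 3324 and 4801 for the knockout and 4459, 3932 and 4243 for the wild type. The groups overlapped, and both the lowest and the highest value came from the knockout. Normalized, they read 4112, 3470.5 and 4458 against 4047, 4441 and 3707, with means of 4013 ± 501 (SD, n = 3) and 4065 ± 368. The log2 difference was -0.02 ± 0.11 (SE, n = 3 per genotype; limma adjusted p = 0.978). Its 95% interval ran from -0.27 to 0.22, so the data allow a knockout level between 83.0% and 117% of wild type. A small change of either sign lies within that interval, and a loss of the size measured for Ephx1 lies outside it. The sign of this near-zero value turned without knockout pool 2, to 0.08, and without wild-type pool 2, to 0.04.

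**Figure D1:**
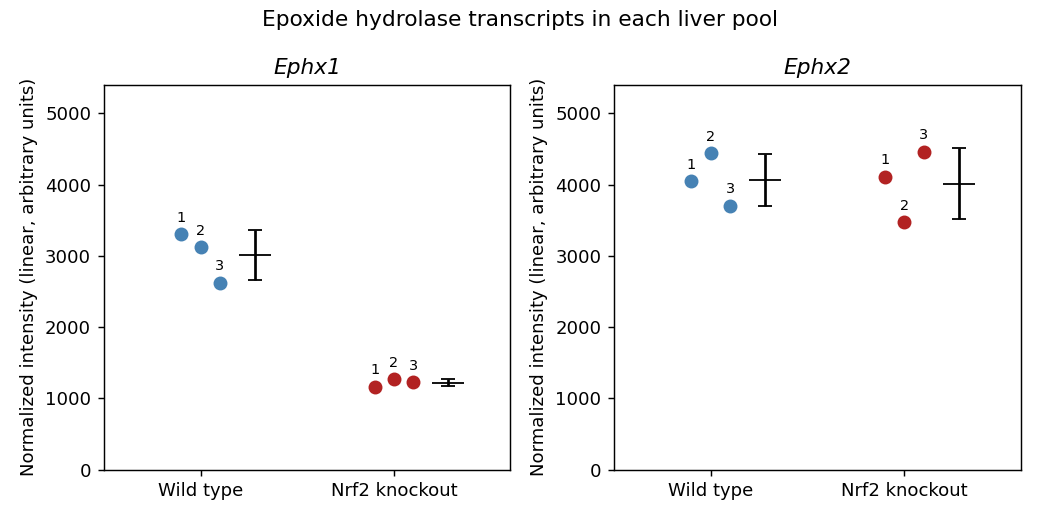
Normalized intensity (linear, arbitrary units) of Ephx1 (left) and Ephx2 (right) in each liver pool, numbered by replicate, with the mean and SD (n = 3) beside each group. For Ephx1 the knockout pools lie between 1165 and 1270.0 and the wild-type pools between 2625 and 3304, while for Ephx2 the groups overlap; heights of different probe sets cannot be compared with each other.

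Of the 2 members, 1 was called, against 0.144% of the 11102 genes tested (16 genes), 0.108% being lower and 0.036% higher. Groups that did not overlap were also found for 1 member, Ephx1, against 13.9% of genes, 6.55% with the knockout below and 7.38% above. An unadjusted p under 0.05 was reached by 8.22% of genes, 4.15% lower and 4.07% higher, which is the background for the counts at that level below. By p-value Ephx1 ranked 4th among the 11102 genes, while by the size of the decrease it ranked 23rd. The rank by p-value takes the SE of each gene into account, and the rank by size does not. The pooled SD of Ephx1 within genotypes was 0.13 on the log2 scale, and 28.8% of genes had a smaller one. Ephx2 had a pooled SD of 0.16, and the median over all genes was 0.18. The size of the Ephx2 difference exceeded that of 10.1% of genes.

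The contrast between the microsomal and the soluble form was tested as the difference of log2 Ephx1 and log2 Ephx2 within each array. Knockout pools 1 to 3 gave -1.82, -1.45 and -1.86, and wild-type pools 1 to 3 gave -0.29, -0.51 and -0.50. All 3 knockout pools were below all 3 wild-type pools, and over the 9 possible pairs of a knockout with a wild-type pool the difference ran from -0.94 to -1.57. The group means were -1.71 ± 0.23 (SD, n = 3) and -0.43 ± 0.12, so the knockout differed from the wild type in this ratio by -1.27 ± 0.15 (SE), a 2.42-fold decrease relative to Ephx2. The exact two-sided permutation p over the 20 splits was 0.1, the smallest that 3 against 3 can give, so this contrast could not reach 0.05 by design. Because the ratio is taken within an array, it describes how the 2 transcripts differ in their change and not whether either was constant.

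The separation held under every alternative processing that was run. Over 15 alternatives Ephx1 lay between -1.40 and -1.24 log2 and stayed called in all 15, with limma adjusted p-values from 0.00082 to 0.0323, the highest without the intensity trend. Over the same 15 alternatives Ephx2 lay between -0.10 and 0.08 and was called in 0 of them, with adjusted p-values of 0.801 or higher. The within-array contrast lay between -1.39 and -1.20. With 1 probe set per gene, the other filters, the omitted trend, the replicate block and the mean of probe sets cannot move these differences. Those alternatives can change only the SE and p-values.

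**Figure D2:**
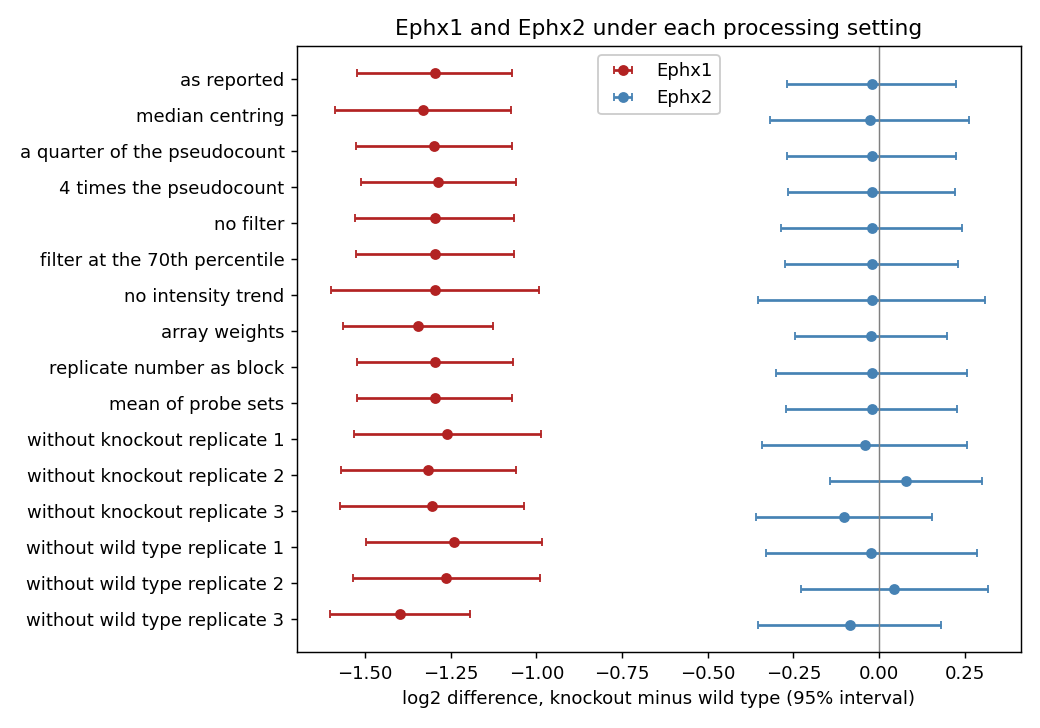
The log2 difference between knockout and wild type for Ephx1 (red) and Ephx2 (blue), with 95% intervals from limma, as reported (top) and under 15 alternatives. Every Ephx1 interval ends at -0.98 or lower and every Ephx2 interval includes 0.

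No other epoxide hydrolase on the array was called. Ephx3 and Ephx4, further members of the gene family, were too dim to be tested, at 4.96 to 25.3 and 0.23 to 8.94 intensity units over the 6 arrays. Lta4h, the bifunctional hydrolase that makes leukotriene B4, was at -0.02 ± 0.11 log2 (SE, n = 3 per genotype). Ebp and Dhcr7, sterol enzymes that together also act as the cholesterol epoxide hydrolase, were at 0.14 ± 0.09 and 0.23 ± 0.17. Of these 3 tested genes 0 were called by limma and 0 had an unadjusted p under 0.05.

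Upstream of the hydrolases, the cytochromes P450 that form epoxides had no called member. Of 18 tested, 12 were lower and 6 were higher in the knockout, with a median of -0.08 log2 beside 0.01 for all genes, 1 lower and 2 higher at an unadjusted p under 0.05. Members with the smallest p-values lay on both sides of 0. Cyp2j6, at -0.33 ± 0.11, was the 1 member with groups that did not overlap on the normalized scale; before normalization they did overlap, knockout pool 3 at 230 being above wild-type pool 2 at 218. Cyp2j5 was at -0.18 ± 0.08, with its other tested probe set of the opposite sign. Cyp2c38 and Cyp2c39 were at 0.63 ± 0.24 and 0.65 ± 0.26, and probes of such near-identical Cyp2c transcripts can bind each other's RNA. The partner enzymes of oxidation in the endoplasmic reticulum, where microsomal epoxide hydrolase resides, were also without a limma call: 4 of 7 were lower, 1 of them at an unadjusted p under 0.05, with a median of -0.09 and with the haem-binding P450 partner Pgrmc1 at -0.21 ± 0.06.

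Other routes that clear an epoxide or its diol also held more lower than higher members. Glutathione S-transferases, which conjugate epoxides directly, were lower for 11 of 15 tested members with a median of -0.30. Gstm1, whose product acts on many epoxides, fell by 0.96 ± 0.08 log2 (SE, n = 3 per genotype; limma adjusted p = 0.00289), and it was the 1 member called. That count was 0 without the intensity trend and 3 without wild-type pool 3. Gstm4, Gstm2 and Gstm3 were at -0.74 ± 0.11, -0.61 ± 0.14 and -1.04 ± 0.26 without passing, and mu-class probes share sequence, so the share of each gene is uncertain. The summed normalized signal of the transferase list was 37104 to 37716 in the knockout pools and 43886 to 48839 in the wild-type pools. Bright members weigh most in this sum. Gstm1 alone had deposited intensities of 3031, 3966 and 4210 in the knockout against 8465, 7744 and 7463 in the wild type. The sum does not describe every member, 4 of the 15 being higher in the knockout.

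Downstream of microsomal epoxide hydrolase, aldo-keto reductases can oxidise dihydrodiols or reduce the aldehydes that epoxides give rise to. Of 8 tested members 7 were lower, with a median of -0.13 log2, and 0 were called by limma; 3 were lower at an unadjusted p under 0.05. Akr7a5, an aflatoxin aldehyde reductase, read 1270.0, 1469.5 and 1779 for the knockout and 2517, 1904 and 2374 for the wild type. Its groups did not overlap, and the log2 difference was -0.44 ± 0.07 (limma adjusted p = 0.0953). Akr1c14 was at -0.40 ± 0.10 and Akr1a1 at -0.18 ± 0.07, also without overlap of the groups on the normalized scale. Before normalization those of Akr1a1 did overlap, knockout pool 3 at 7901 being above wild-type pool 2 at 7825.

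Around soluble epoxide hydrolase, the genes that release arachidonic acid or oxidise it by other routes had no direction as a list. Of 11 tested, 6 were higher and 5 lower, and 0 were called by limma, with 1 lower and 2 higher at an unadjusted p under 0.05. The median was 0.01, the same as for all genes. With median centring in place of quantile normalization it was -0.02, beside -0.03 for all genes. The omega-hydroxylase genes went apart in sign. Cyp4a14 read 60.7, 392 and 2051 for the knockout and 31.9, 14.0 and 40.9 for the wild type, a difference of 3.67 ± 0.93 log2 that did not pass (adjusted p = 0.391). Without knockout pool 1 it was 4.88 ± 0.55 and called (limma adjusted p = 0.0420), the 1 call then made in this list and in that of PPAR alpha targets, which also holds the gene. The knockout pools differed among themselves far more than the wild-type pools did. Cyp4a12a was at -0.73 ± 0.26, Cyp4f15 at 0.38 ± 0.13 and the phospholipase gene Pla2g6 at 0.17 ± 0.10, where 2 further probe sets had the opposite sign.

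Genes under the known regulators of the 2 members were counted next. The list of Nrf2 targets was chosen with earlier results of these data known, so its counts are a description and no independent support. Of 23 tested Nrf2 targets other than Ephx1, 22 were lower, with a median of -0.35 log2 against 0.01 for all genes. A knockout group wholly below the wild type was found for 13, where 6.55% of all genes had one. By limma 5 were called lower, where 0.108% of all genes were, and 0 were called higher. The 5 were Ces1g, a carboxylesterase, at -2.84 ± 0.22, Abcc3, a conjugate exporter, at -1.98 ± 0.27, Aox1, an aldehyde oxidase, at -1.78 ± 0.14, Me1, the cytosolic malic enzyme, at -1.78 ± 0.14, and Gstm1, all at limma adjusted p-values of 0.0438 or lower. Ephx1, at -1.30, lies between Gstm1 and Me1 in this order. Nqo1, a quinone reductase used as a readout of Nrf2 and named here after its value was seen, was at -0.72 ± 0.22 and not called. The call count of this list was 3 without the intensity trend.

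Targets of CAR and PXR, the receptors behind the phenobarbital response of Ephx1, had no direction. Of 10 tested, 5 lay above 0 and 5 below, around a median of -0.0026. With median centring the median was 0.016, beside -0.03 for all genes. By limma 0 were called, 2 being higher at an unadjusted p under 0.05. The members ran from -1.11 to 0.82 log2. Among those with the smallest p-values, Slco1a4, an organic anion carrier, was at 0.82 ± 0.30, Abcb1a, an efflux pump, at 0.53 ± 0.23 and Cyp2c55 at 0.38 ± 0.25. Abcc2, which is also in the list of Nrf2 targets, was at -0.35 ± 0.17. Targets of PPAR alpha, to which Ephx2 is linked, were higher for 16 of 25 with a median of 0.03, 0 called by limma and 8 higher at an unadjusted p under 0.05. Besides Cyp4a14 these were led by Ehhadh, the peroxisomal bifunctional enzyme, at 0.31 ± 0.09, Hadha at 0.25 ± 0.08 and Acot1 at 0.52 ± 0.16. Ephx2 at -0.02 lay close to the list's median; leaving out knockout pool 2 moved that median to 0.14 and Ephx2 to 0.08. Among 16 transcription factors tied to the 2 genes, 11 were lower, with a median of -0.07 and 0 called by limma, with 0 at an unadjusted p under 0.05. Those with the smallest p-values were the receptor genes Nr1i2 at 0.28 ± 0.12, Nr1i3 at -0.44 ± 0.23, Rxra at -0.17 ± 0.10 and Ppara at -0.25 ± 0.19, and for both Rxra and Ppara 1 further probe set had the opposite sign.

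**Figure D3:**
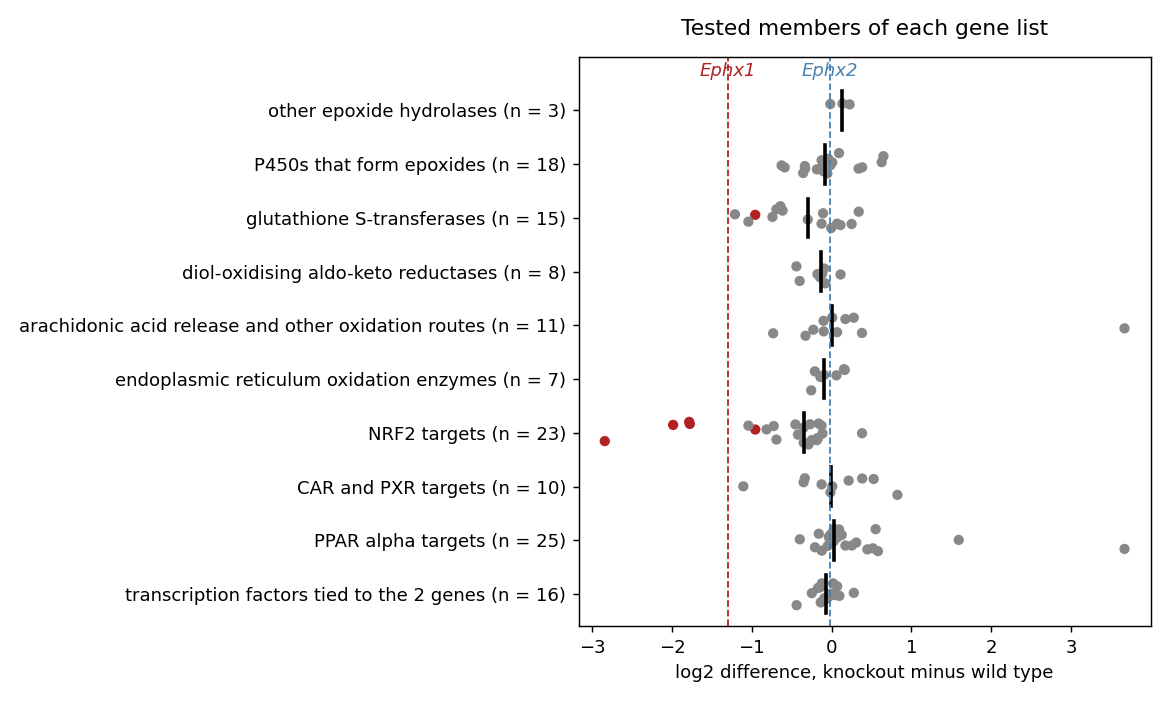
The log2 difference between knockout and wild type of every tested member of 10 gene lists (dots, red where the limma adjusted p was under 0.05), with each list's median (black bar) and the values of Ephx1 and Ephx2 (dashed lines). The red dots are Gstm1, shown in both lists that hold it, and 4 further Nrf2 targets, and the median of the Nrf2 targets, -0.35, lies farthest from 0.

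The gene beside Ephx1 also fell. Among the 5 named and tested genes on each side of Ephx1 in the order of the mouse gene table, 1 of 10 was called, 9130409I23Rik, an uncharacterised gene and the next entry of the table with 0 genes between. Knockout intensities read 32.0, 41.5 and 16.0, and wild-type intensities 800, 507 and 419. The lowest wild-type pool was far above the highest knockout pool, and the log2 difference was -3.92 ± 0.35 (SE, n = 3 per genotype), a 15.2-fold decrease, with a limma adjusted p of 0.00289. It was called under all 15 alternatives, with values from -4.18 to -3.40. This is the gene whose promoter stretch, printed above, holds 3 capital motif matches. The part of these matches, or of the strain background of the mice, in this fall was not tested. On the other side the nearest gene, Tmem63a, a membrane channel gene, was at 0.09 ± 0.12, and the neighbour with the next smallest p, H3f3a, a histone gene, at 0.29 ± 0.22. The other 9 neighbours lay between -0.10 and 0.29, so along this stretch the called genes were the adjoining pair, Ephx1 and 9130409I23Rik.

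Near Ephx2, 0 of 10 neighbours were called by limma, with 2 at an unadjusted p under 0.05. The 2 were Scara5 and 1700001G11Rik, and their groups did not overlap. Scara5, a ferritin receptor gene with 11 table entries between it and Ephx2, was at -1.04 ± 0.28 (limma adjusted p = 0.43). 1700001G11Rik, dim at 11.5 to 28.7 intensity units, was at -0.58 ± 0.23 (limma adjusted p = 0.607). Dpysl2, named after its value was seen, was higher at 0.21 ± 0.11, also without overlap on the normalized scale. Before normalization its groups did overlap, knockout pool 1 at 212 being below wild-type pool 1 at 256. In all, 3 of 10 neighbours had groups that did not overlap, against 13.9% of all genes. The nearest tested genes, Gulo, which makes vitamin C in mice, and Ptk2b, a tyrosine kinase gene, were at 0.00 ± 0.14 and -0.15 ± 0.20.

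**Figure D4:**
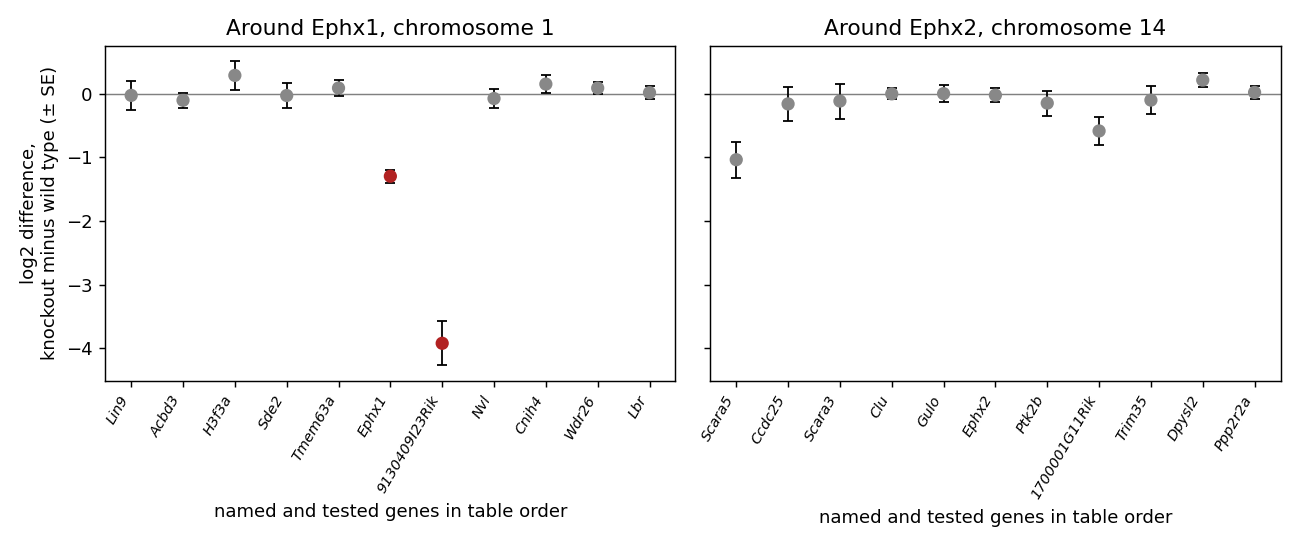
The log2 difference between knockout and wild type, with its SE (n = 3 per genotype), of Ephx1 and Ephx2 and of the 5 named and tested genes on each side, in gene table order; red marks a limma adjusted p under 0.05. Around Ephx1 the red points are Ephx1 at -1.30 and 9130409I23Rik at -3.92, and around Ephx2 there are none.

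Genes whose values followed each member most closely over the 6 arrays were also listed. For Ephx1 the 5 highest Pearson correlations were with Akr7a5 (0.998), Aox1 (0.998), Gstm1 (0.997), Gstm4 (0.995) and Ugt2b5 (0.994), a glucuronosyltransferase gene at -0.74 ± 0.07 log2 (limma adjusted p = 0.00289). For Ephx2 they were Gpt2 (0.995), an alanine aminotransferase gene, Acsm3 (0.989), an acyl-CoA synthetase gene, Ppm1g (0.985), a phosphatase gene, Timm23 (0.983), of the mitochondrial import channel, and Ubn2 (0.981), a histone chaperone gene. These 5 lay between -0.08 and 0.00 log2. Likeness to a member over 6 arrays carries that member's difference between the genotypes with it, so the direction of these genes is no separate result. The arrays also share their normalization, and with median centring 2 of the 5 named for Ephx1 and 0 of the 5 named for Ephx2 remained among the 5 highest. Of the 5 genes most like Ephx1, all 5 had a RefSeq promoter and 0 held the motif core. Of the 24 listed Nrf2 targets with a promoter 10 held it, and Aox1 and Gstm1 are in both sets. Among the genes called lower other than Nfe2l2, 2 of the 10 with a promoter held it. Over all RefSeq promoter windows the share was 12.4%, so 0 of 5 does not set these genes apart. A gene counted if any of its windows matched, while that share is per window.

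Some marker lists differed between the genotypes in their summed normalized signal or in the balance of their members. Male-biased liver genes were lower for 8 of 9 tested members with a median of -0.31, led by Cyp7b1 at -1.11 ± 0.28, and their summed signal was 17037 to 26679 in the knockout pools against 30218 to 32257 in the wild-type pools; of the female-biased list 4 of 10 genes were measured and 0 were bright enough to be tested. Stellate cell and fibroblast markers were higher for 10 of 10, with a median of 0.22, Des at 1.00 ± 0.31, and sums of 4854 to 4921 against 4050 to 4438. Pericentral genes were lower for 9 of 11 (median -0.14) and periportal genes higher for 7 of 9 (median 0.17), with sums of 30505 to 35753 against 33415 to 39551 and of 38377 to 41781 against 36492 to 39472. No member of these lists was called by limma; at an unadjusted p under 0.05 the male-biased list had 3 lower, the stellate list 1 higher, the pericentral list 0 and the periportal list 2 higher. Without knockout pool 3 the pericentral list had 1 call, the glutamate carrier gene Slc1a2 at -1.37 ± 0.17 (limma adjusted p = 0.0334), which was at -0.83 ± 0.40 over all pools. Without knockout pool 2 the medians were -0.12 for the male-biased, 0.12 for the stellate, -0.089 for the pericentral and 0.066 for the periportal list. The part of sex, zone or cell makeup in the Ephx1 difference was not tested, and in bulk RNA fewer cells of a type cannot be told apart from less RNA per cell.

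Markers of the remaining cell types overlapped between genotypes in their summed signal. Kupffer cell markers had sums of 6304 to 8327 in the knockout and 6354 to 7552 in the wild type (8 of 11 higher), and endothelial markers of 3959 to 4094 and 3642 to 3999 (7 of 10 higher). Hepatocyte markers, higher for 7 of 10 with a median of 0.05, had sums of 100002 to 104315 and 96816 to 100231 respectively. Cholangiocyte markers were mostly dim, with 2 of 8 tested and Krt7, Krt19 and Cftr under the filter. Lymphocyte and granulocyte markers were tested for 5 of 10, with Cd3e and Cd79a under the filter, red blood cell markers for 2 of 5 and pancreas and fat markers for 2 of 7, with Ins2 and Adipoq under the filter. Their summed ranges were 35.8 to 70.7 and 43.2 to 79.3 for cholangiocytes, 106 to 256 and 135 to 157 for lymphocytes and granulocytes, 225 to 1106 and 276 to 1252 for red blood cells, and 727 to 1214 and 489 to 873 for pancreas and fat.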

How the data were processed

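Linear intensities were deposited, 1 for each probe set and array. Software GCOS 1.4 appears per the submitters' processing notes, and how signals were computed, scaled or filtered is not given in the sources used here. Names came from the platform annotation, 34945 of 45037 having 1 gene, with symbols brought up to date by Entrez identifier for 34741 through the RefSeq table of GRCm38.p6. The 64 control probe sets were left out. The pseudocount, 5.25, is the 25th percentile of all values, and it makes fold changes of dim probe sets too small. Values were quantile normalized, and probe sets whose mean reached the median were tested with limma 3.58.1 in R 4.3.3 (lmFit, eBayes with an intensity trend, Benjamini-Hochberg), a procedure tested on simulated data. The brightest tested probe set stood for a gene. Since pools may share animals, p-values reflect pool spread alone. Marker and pathway lists, 22 in all, are described by counts and medians, and sums add normalized linear intensities of tested members. The members and lists were chosen with earlier results of these data known. Named genes are the members, Nfe2l2, up to 4 list members with the smallest p and any called one, the 2 neighbours with the smallest p at each locus and the 5 genes most correlated with each member. Nearest neighbours, markers under the filter and genes marked so were added after their values were seen. Alternatives were median centring, a smaller and a larger pseudocount, other filters (none, 70th percentile), no trend, array weights, a replicate block, the mean of probe sets and each pool left out.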

Additional observations from a re-analysis of the deposited data

How the results depend on the processing

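Ephx1, the contrast of Ephx1 with Ephx2, Nfe2l2 and 9130409I23Rik kept their direction and their side of the threshold under the 15 alternatives run for each, the contrast being unable to reach 0.05 in any. Ephx2 kept its side of the threshold in all 15. Its value was 0.079 on leaving out knockout pool 2 and 0.044 on leaving out wild-type pool 2, both of the opposite sign, and -0.10 at its lowest. The deviations of same-numbered pools correlated at 0.13, 0.05 and 0.25. Over all pairs of a knockout with a wild-type pool the correlations ran from -0.19 to 0.25, so number 3 gave the highest. The same-numbered pools did not all deviate together, so the numbers were not taken to pair them. With the replicate block Ephx1 was at -1.30 (limma adjusted p = 0.00702), Ephx2 at -0.02, the contrast at -1.27 (exact sign-flip permutation p = 0.25, the smallest 3 pairs allow), and 32 probe sets were called. The number of probe sets called, 32 as reported, was 20 if dim probe sets were kept, 19 at the 70th percentile, 18 without the intensity trend and 18 to 29 with 1 pool left out. It was 19 for the omission of knockout pool 1 or knockout pool 2 and 18 for wild-type pool 2. The cause of these moves was not tested, beyond fewer samples in the last case.

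List medians, which have no test, moved by more than the spread between pools in these cases. The arachidonic acid list was at -0.045 with no filter, 0.069 with the 70th percentile, 0.064 with array weights, -0.049 with the mean of probe sets and -0.12 to 0.14 with 1 pool left out. The CAR and PXR list was at -0.058 with the 70th percentile, the glutathione S-transferases at -0.45 with the mean of probe sets and the hepatocyte list at 0.088 with median centring. With 1 pool left out, the CAR and PXR list ran from -0.090 to 0.046, PPAR alpha targets from -0.044 to 0.14, transcription factors from -0.10 to 0.0033, endoplasmic reticulum enzymes from -0.17 to -0.040, periportal genes from 0.055 to 0.16, male-biased genes from -0.43 to -0.12, hepatocyte genes from 0.0021 to 0.066 and endothelial genes from 0.023 to 0.19. Medians that moved by over 1.5 times but within that spread include, with 1 pool left out, pericentral genes from -0.26 to -0.089, stellate markers from 0.12 to 0.32 and P450s that form epoxides, at -0.025 without knockout pool 2. Of the 5 genes most correlated with Ephx1, 2 remained with median centring, 3 with no filter, 3 with the mean of probe sets and 3 to 4 with 1 pool left out. For Ephx2 these counts were 0 with median centring, 3 with the mean of probe sets and 1 to 3 with 1 pool left out. Each gene rested on 1 probe set, so no second probe set could check either value.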
